A study of Homo sapiens with 6 samples.

Results

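The genes of protein kinase C (PKC) and protein kinase D (PKD) were followed in WM266.4 cells, an established human melanoma line, after silencing of RIPK4. Members were taken by gene symbol: PRKCA and PRKCB of the conventional class, PRKCD, PRKCE, PRKCH and PRKCQ of the calcium-independent class (nPKC), PRKCI and PRKCZ of the atypical class, and PRKD1 and PRKD3 of PKD. Of these 10 genes, 9 were among the 24526 genes of the deposited table, and 8 passed the filter on low counts that left 16297 genes of the table for testing. PRKCQ was not among the genes of the deposited table, so its level was not analysed, and PRKCB did not pass the filter. In neg.si, 3 cultures received a negative control siRNA, and in RIPK4.si, 3 cultures received an siRNA against RIPK4. Total RNA was isolated 48 h after transfection, and mRNA libraries made from it were sequenced. One siRNA product was used in each group, so lower RIPK4 and any other effect of that siRNA cannot be told apart.

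PKC enzymes are serine/threonine kinases that carry signals from membrane lipids. Conventional isoforms respond to calcium and diacylglycerol, nPKC isoforms to diacylglycerol alone, and atypical isoforms to neither, working with polarity proteins instead. PKD enzymes bind diacylglycerol too and are phosphorylated by nPKCs. RIPK4 was first described as a kinase that binds PKCδ, the product of PRKCD, and in skin PKC signaling governs keratinocyte differentiation, while in melanocytes it acts on pigmentation and growth.

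All of these kinases share a short motif at the start of the activation loop, an aspartate, a residue with an aromatic ring and a glycine, of which the aspartate holds the magnesium of ATP. PRKCA, PRKCD, PRKCI, PRKCZ and PRKD3, which cover all classes, are shown at this site to let their transcripts be compared. The 27 bases are coding sequence of GENCODE release 44 (GRCh38), 5′ to 3′ on the transcript, with the 3 codons of the motif in capitals.
PRKCA (chr17:66742668-66742694, plus strand): aaaattgctGACTTTGGGatgtgcaag
PRKCD (chr3:53188766-53188792, plus strand): aagattgccGACTTTGGGatgtgcaaa
PRKCI (chr3:170284570-170284596, plus strand): aaactcactGACTACGGCatgtgtaag
PRKCZ (chr1:2172164-2172190, plus strand): aagctcacaGACTACGGCatgtgcaag
PRKD3 (chr2:37256900-37256926, minus strand): aagctgtgtGACTTTGGAtttgcacgc
The middle residue was phenylalanine in PRKCA, PRKCD and PRKD3 and tyrosine in the atypical PRKCI and PRKCZ. The encoded proteins had 672 residues for PRKCA, 676 for PRKCD, 596 for PRKCI, 592 for PRKCZ and 890 for PRKD3. The transcripts of the 2 atypical isoforms differed widely in base composition, with a GC content over the longest transcript of 38.7% for PRKCI and 60.3% for PRKCZ.

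Counted read pairs per library, summed over genes, ran from 28464057 to 31688095. Transcript levels are given as CPM, counts relative to the TMM-normalized library size, with the values of a group in the order of replicates 1, 2 and 3, or as the mean ± SD of the group (n = 3). All 7 melanocyte lineage markers looked up (among them MITF, SOX10 and TYR) had at least 338 counts in every library, while 7 markers of leukocytes, endothelium and epithelium had at most 31. Of the 7 melanocyte markers, 1 fell with edgeR (0.767% of all tested genes passed), PMEL (log2 fold change -1.30, adjusted p = 0.0111). With DESeq2 (2.78% of all tested genes passed), 3 passed, PMEL, DCT (log2 fold change -0.73 in edgeR) and TYR (-0.57 in edgeR), all lower in RIPK4.si. MITF (0.04) and MLANA (0.06) lay above 0, and the median of the list was -0.48. RIPK4, the silenced gene, had 85.8, 76.5 and 54.7 CPM in neg.si and 19.9, 16.7 and 21.5 CPM in RIPK4.si. Its level in RIPK4.si was 26.8% of that in neg.si (log2 fold change -1.90 with a standard error of 0.203, and an adjusted p of 0.0102 in the quasi-likelihood test of edgeR). The adjusted p-value of RIPK4 lay above 0.05 when neg.si replicate 2 (0.106), RIPK4.si replicate 1 (0.094), RIPK4.si replicate 2 (0.0622) or RIPK4.si replicate 3 (0.0725) was left out. With any 1 library left out, its log2 fold change lay between -2.06 and -1.74.

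The levels of the genes were first set in order, which requires a scale per length, so CPM was divided by the kilobases of annotated exon. Among the members PRKCD was the most abundant, followed by PRKD3 and PRKD1. In neg.si, PRKCD had 40.9, 37.3 and 27.3 CPM per kilobase, higher than 94.0% of the tested genes on average. PRKD3, a PKD found broadly in tissues, had 15.6, 20.6 and 25.8 CPM per kilobase in that group. PRKD1, the founding PKD, had 9.45, 11.7 and 12.1 CPM per kilobase. These 3 genes stood in this order in both groups without overlap between neighbours.

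A middle group was formed by PRKCI, PRKCE and PRKCA. The atypical PRKCI had 5.43 ± 2.43 CPM per kilobase (SD, n = 3), the nPKC gene PRKCE 3.49 ± 0.452 and the conventional PRKCA 3.47 ± 0.372 in neg.si, and the libraries of neighbours in this order overlapped. In RIPK4.si the means were 4.41 ± 0.842 CPM per kilobase for PRKCA, 3.75 ± 1.06 for PRKCI and 3.46 ± 0.216 for PRKCE, again with overlap between PRKCA and PRKCI and between PRKCI and PRKCE. On this scale the order of these 3 genes was therefore not resolved in either group.

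PRKCZ and PRKCH were low. PRKCZ, an atypical isoform, had 0.626 ± 0.137 CPM per kilobase in neg.si and 0.763 ± 0.195 in RIPK4.si (SD, n = 3). PRKCH, an nPKC isoform best known from epithelium and lymphocytes, had 0.551 ± 0.00166 in neg.si and 0.427 ± 0.0774 in RIPK4.si. The PRKCZ and PRKCH libraries overlapped in neg.si but not in RIPK4.si. On this scale PRKCD exceeded PRKCH 63.9-fold in neg.si. PRKCB, the conventional isoform prominent in B cells, had 1, 6 and 6 counts in neg.si and 4, 13 and 7 in RIPK4.si, or 37 in all. PRKCB was not tested with edgeR, and DESeq2 gave it an unadjusted p-value of 0.305.

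**Figure D1:**
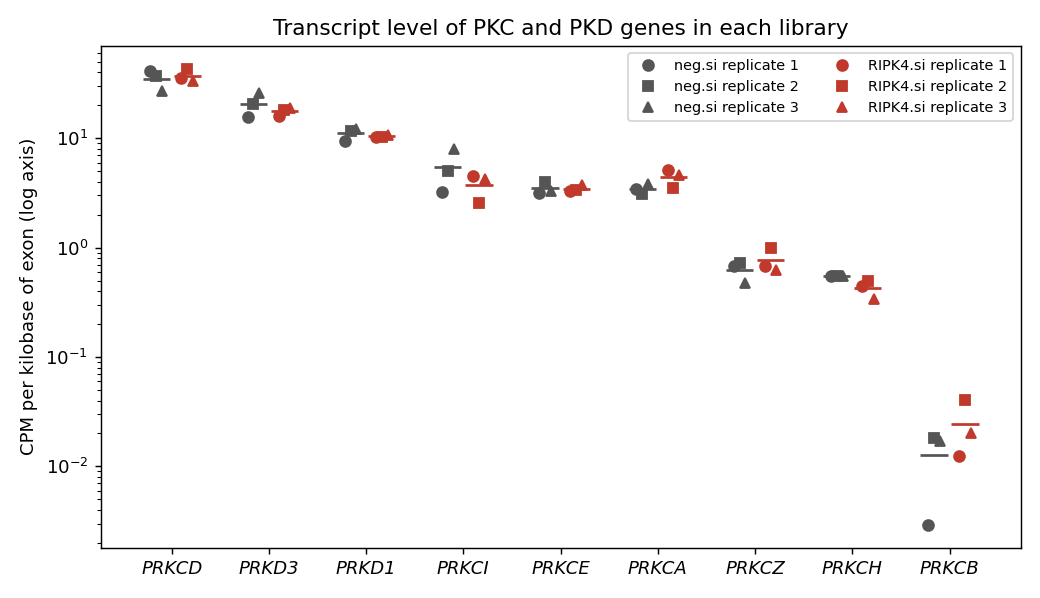
Transcript level of the 9 measured genes in each library, in CPM per kilobase of exon on a log axis. Points are libraries (grey neg.si, red RIPK4.si, symbol by replicate number), and horizontal lines are group means. PRKCD lies highest and PRKCB lowest, and for most genes the grey and red points overlap.

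The make-up of the family was described by the share of each class in the summed level of the 9 genes, which lay between 76.1 and 83.1 CPM per kilobase in the 6 libraries. The nPKC isoforms, of which PRKCD was the most abundant, gave 57.9%, 50.4% and 38.3% in neg.si and 51.8%, 56.9% and 48.9% in RIPK4.si. PKD, here PRKD1 and PRKD3 without PRKD2, gave 32.6%, 38.9% and 46.5% in neg.si and 34.6%, 34.5% and 38.7% in RIPK4.si. The lowest nPKC share and the highest PKD share of all were thus both in neg.si replicate 3, and the groups overlapped for both classes. Atypical isoforms made up 5.05%, 6.95% and 10.4% in neg.si and 6.82%, 4.26% and 6.32% in RIPK4.si, again with the highest share in neg.si replicate 3. Conventional isoforms made up 4.34% ± 0.507 in neg.si and 5.70% ± 1.29 in RIPK4.si (SD, n = 3).

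**Figure D2:**
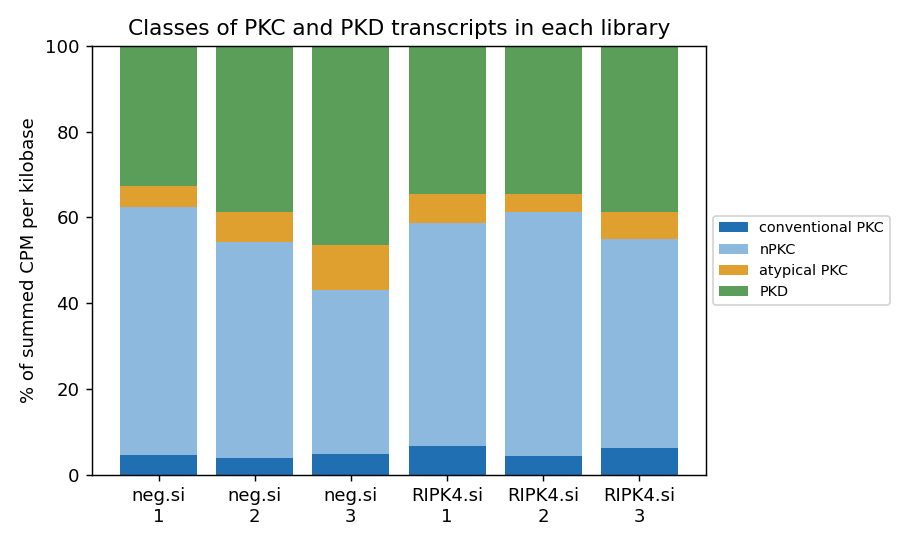
Share of each class in the summed CPM per kilobase of the 9 measured genes, in percent, with 1 bar per library. The nPKC share is lowest, at 38.3%, and the PKD share highest, at 46.5%, in neg.si replicate 3.

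Whether silencing of RIPK4 went with other levels of these kinases was then tested. None of the 8 tested genes passed: 0 had an adjusted p-value under 0.05 with edgeR, where 0.767% of all tested genes did, and 0 with DESeq2, where 2.78% did. At an unadjusted p-value under 0.05, 0 of the 8 were found with either tool, against 10.8% of all genes with edgeR. The adjusted p-values of edgeR lay between 0.564 and 0.995. The fitted log2 fold change was above 0 in 3 genes and under 0 in 5, with a median of -0.047 (PRKCE, at -0.0096, turned to the other side of 0 in 8 of 14 alternatives, DESeq2 among them), while the median of all tested genes was -0.023. The 95% interval of the log2 fold change included 0 in all 8 genes and lay within 1 on either side of 0 in 7 of them, PRKCI being the exception. With 3 libraries a group, a change inside these intervals could have been missed. The intervals are not adjusted, so their width is not the detection limit of the adjusted test, and larger changes can be missed too. For GNAQ, a pathway gene given below, the interval of -1.13 to -0.17 excluded 0, while the adjusted p from edgeR was 0.267.

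**Figure D3:**
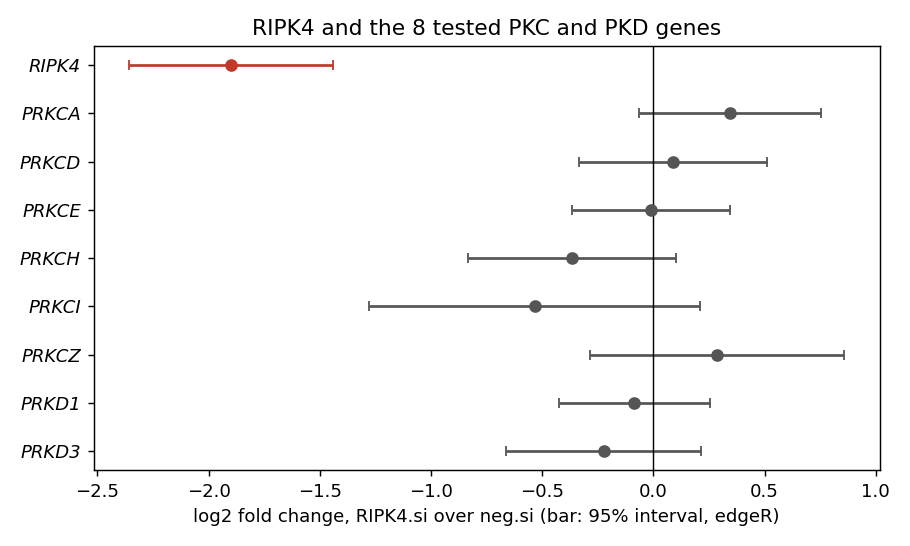
Fitted log2 fold change (RIPK4.si over neg.si) of RIPK4 and the 8 tested PKC and PKD genes, with 95% intervals from edgeR as bars. Only RIPK4 (red) passed the test, and the intervals of all 8 PKC and PKD genes cross 0.

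PRKCA, which encodes PKCα and lies on chromosome 17 of GRCh38 from 66302613 to 66810743, had the smallest p-value of the family. It had 38.5, 34.8 and 43.1 CPM in neg.si and 57.2, 38.9 and 51.8 CPM in RIPK4.si. RIPK4.si replicate 2 fell within the range of neg.si, and the other 2 RIPK4.si libraries lay above it. The log2 fold change was 0.35 (95% interval -0.06 to 0.76, unadjusted p = 0.0886 and adjusted p = 0.564 from edgeR), so the difference did not pass the test.

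PRKCD (chromosome 3, 53156009 to 53192717), the gene of the isoform that binds RIPK4, had 200.6, 183.2 and 134.1 CPM in neg.si and 175.1, 212.2 and 163.8 CPM in RIPK4.si. The groups overlapped over most of their range, with the lowest value in neg.si replicate 3. The log2 fold change was 0.09 (95% interval -0.33 to 0.51, adjusted p = 0.945 from edgeR), which corresponds to a fold of 1.06 with bounds of 0.794 and 1.43. Leaving out neg.si replicate 3 gave -0.058, leaving out RIPK4.si replicate 2 gave -0.019, and leaving out neg.si replicate 1 gave 0.23.

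PRKCE (chromosome 2, 45651345 to 46187990), encoding PKCε of the nPKC class, had 31.6, 40.0 and 32.8 CPM in neg.si and 33.2, 33.4 and 37.0 CPM in RIPK4.si. All RIPK4.si values lay inside the range of neg.si, and the log2 fold change was -0.0096 (95% interval -0.36 to 0.35, adjusted p = 0.995 from edgeR). PRKCH (chromosome 14, 61187559 to 61550976), encoding PKCη, had 153, 148 and 156 counts in neg.si and 118, 127 and 95 counts in RIPK4.si, or 4.93 ± 0.0148 and 3.82 ± 0.692 CPM. It was the 1 tested gene of the 8 (12.5%) whose groups did not overlap, a gap present in 17.6% of all tested genes. Its log2 fold change was -0.37 (95% interval -0.84 to 0.10, adjusted p = 0.615 from edgeR), and leaving out RIPK4.si replicate 3 gave -0.22 and RIPK4.si replicate 2 -0.47. The SD of PRKCH between the neg.si libraries, 0.0148 CPM, was smaller than the 0.399 CPM that counting of 148 to 156 read pairs alone would give, so it cannot serve as a measure of the spread between cultures. PRKCH shares 356 bases of exon with TMEM30B, 138 with an unnamed lncRNA and 133 with PRKCH-AS1, all on the opposite strand. It also shares 419 with an unnamed protein-coding gene on its own strand, and read pairs were counted without strand.

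The atypical genes had fitted changes on opposite sides of 0, and neither passed. PRKCI (chromosome 3, 170222424 to 170305977), whose product PKCι works in cell polarity, had the largest spread relative to its mean among the 8 tested genes, in both groups. Its values were 18.5, 29.2 and 46.4 CPM in neg.si and 26.0, 14.7 and 24.4 CPM in RIPK4.si. The lowest neg.si library lay within the RIPK4.si range. The log2 fold change was -0.53 (95% interval -1.28 to 0.21, adjusted p = 0.667 from edgeR), and leaving out neg.si replicate 3 gave -0.13, neg.si replicate 1 -0.78 and RIPK4.si replicate 2 -0.30. PRKCZ (chromosome 1, 2050411 to 2185395), encoding PKCζ, had 5.23, 5.59 and 3.62 CPM in neg.si and 5.28, 7.58 and 4.76 CPM in RIPK4.si. Its log2 fold change was 0.29 (95% interval -0.29 to 0.86, adjusted p = 0.812), and leaving out RIPK4.si replicate 2 gave 0.069 and neg.si replicate 3 0.12. In the other direction, leaving out neg.si replicate 2 gave 0.42 and RIPK4.si replicate 3 0.43. PRKCZ shares 590 bases of exon with FAAP20, 83 with PRKCZ-AS1 and more than that with an unnamed lncRNA, all on the opposite strand.

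PRKD1 and PRKD3, whose kinases act at the Golgi and the plasma membrane, had fitted changes under 0 that did not pass. PRKD1 (chromosome 14, 29576479 to 30191898) had 54.9, 67.8 and 70.3 CPM in neg.si and 60.1, 60.0 and 61.8 CPM in RIPK4.si, all of the latter inside the neg.si range. Its log2 fold change was -0.09 (95% interval -0.42 to 0.25, adjusted p = 0.929 from edgeR), and leaving out neg.si replicate 1 gave -0.17, replicate 2 -0.029 and replicate 3 -0.012. PRKD1 shares 121 bases of exon with an unnamed lncRNA on the opposite strand. PRKD3 (chromosome 2, 37250502 to 37324833 in GENCODE) had 160.4, 211.5 and 264.8 CPM in neg.si and 164.0, 187.3 and 194.4 CPM in RIPK4.si, also inside the neg.si range. Its log2 fold change was -0.22 (95% interval -0.66 to 0.22, adjusted p = 0.81), and leaving out neg.si replicate 3 gave -0.027, neg.si replicate 1 -0.37 and RIPK4.si replicate 1 -0.14. PRKD3 shares 265 bases of exon with NDUFAF7 on the opposite strand. PRKD2, the remaining PKD gene and not a member of the list, had 27.0 ± 6.70 CPM in neg.si and 31.8 ± 4.11 CPM in RIPK4.si (log2 fold change 0.24, adjusted p = 0.816).

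Several of these values moved when neg.si replicate 3 was left out, and also when neg.si replicate 1 or RIPK4.si replicate 2 was. The difference between neg.si replicates 1 and 3 varied with base composition. Across all tested genes the deviation of a library from the mean of the 6 had a rank correlation with GC content of 0.555 in neg.si replicate 1 and -0.547 in neg.si replicate 3. The same contrast was read in the 8 members. From neg.si replicate 1 to neg.si replicate 3, the log2 CPM differed by 1.32 for PRKCI (38.7% GC) and by 0.72 for PRKD3 (38.9% GC), the members with the least GC. It differed by -0.58 for PRKCD (55.5% GC) and by -0.52 for PRKCZ (60.3% GC), the members with the most. PRKCE, PRKD1, PRKCA and PRKCH, between 47.8% and 50.7% GC, lay between -0.01 and 0.36. Over the 8 genes Pearson's r was -0.94 and Spearman's rho -0.90, where all values come from the same 2 libraries and genes are not independent replicates. Over the 16239 tested genes with a known GC content, Spearman's rho of the same contrast was -0.63, and the 2 libraries were chosen for their opposite trends. What caused the trend was not tested.

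**Figure D4:**
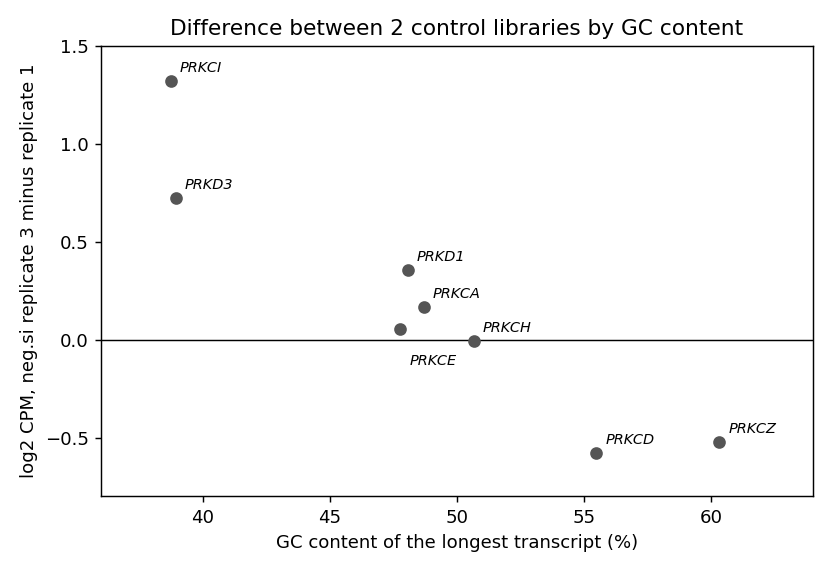
Difference in log2 CPM between neg.si replicate 3 and neg.si replicate 1, on the vertical axis, against the GC content of the longest transcript in percent. Each point is 1 of the 8 tested genes. PRKCI and PRKD3, at 38.7% and 38.9% GC, lie highest, and PRKCD and PRKCZ lie under 0.

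With the trend on GC content removed from every library, the log2 fold changes of the members were -0.46 for PRKCI, -0.34 for PRKCH, -0.17 for PRKD3, -0.048 for PRKD1, 0.026 for PRKCE, 0.097 for PRKCD, 0.26 for PRKCZ and 0.37 for PRKCA. PRKCE thereby changed sign. In this fit 0 of the 8 genes had an adjusted p-value under 0.05, where 3.27% of all tested genes did. PRKCA had an unadjusted p of 0.0291 and an adjusted p of 0.234 from edgeR, and was the 1 member with an unadjusted p-value under 0.05.

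The 3′ UTRs were also searched for the sequence ACAGCTT, which was chosen from an earlier look at these same libraries. The longest annotated 3′ UTR of 2068 tested protein-coding genes (15.95%) held it on the transcript strand, and that of 10895 genes did not. Of the 10 listed genes, PRKD3 alone held a copy, at base 699 of a 3′ UTR of 2675 bases. The copy is shown with 8 bases on either side and the sequence in capitals.
PRKD3 (chr2:37252464-37252486, minus strand): gtgttgcaACAGCTTctaagata
The 3′ UTRs of PRKCI (2850 bases) and PRKCH (1145 bases), the members with the lowest fitted log2 fold changes, did not hold it. Over the tested protein-coding genes the median log2 fold change was -0.10 with the sequence and -0.00063 without it. Of the pathway genes named below, MARCKSL1, GNAQ, PLCB4, PHLPP2, DGKD and CDC42, with fitted changes under 0, and WWC1, above 0, held it. As the sequence was chosen from these libraries, a link with the changes was not tested. A match is a description of the letters and not evidence of a site.

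The genes around these kinases were read from 11 lists of 83 genes that make or remove diacylglycerol, prepare, anchor or oppose PKC and PKD, or are their partners and substrates. Of the 73 genes tested with edgeR, 1 rose and 0 fell at an adjusted p-value under 0.05 (0.767% of all tested genes), and 7, of which 4 were higher and 3 lower in RIPK4.si, had an unadjusted p-value under 0.05 (10.8% of all tested genes). These shares also apply to the single lists, where at so few genes a count of 0 is no result about a list. The median log2 fold change was 0.01. The groups did not overlap in CPM in 14 of the 73 genes (19.2%), against 17.6% of all tested genes. The gene that rose was RASGRP3, which encodes an activator of RAS and RAP that, like PKC, binds diacylglycerol.

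RASGRP3 had 2.62, 4.13 and 2.46 CPM in neg.si and 6.92, 9.73 and 10.4 CPM in RIPK4.si. Every RIPK4.si library lay above every neg.si library, and 17.6% of all tested genes likewise had groups without overlap. The log2 fold change was 1.56 with a standard error of 0.265. The adjusted p was 0.0397 with edgeR and 1.98e-05 with DESeq2. With edgeR, leaving out a neg.si library gave RASGRP3 an adjusted p-value of 0.0677 (replicate 1), 0.129 (replicate 2) or 0.0242 (replicate 3), and leaving out a RIPK4.si library gave 0.11 (replicate 1), 0.142 (replicate 2) or 0.245 (replicate 3). Over these 6 fits its log2 fold change lay between 1.42 and 1.84. RASGRP1, the next gene of the list of 8 other diacylglycerol receptors, had 1.11 ± 0.664 CPM in neg.si and 0.715 ± 0.0802 CPM in RIPK4.si (SD, n = 3). Its log2 fold change was -0.64 (adjusted p = 0.726 from edgeR), and -0.043 without neg.si replicate 3.

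Upstream of the kinases, 0 of 4 genes for Gq alpha subunits, 0 of 9 tested phospholipase C genes and 0 of 8 tested diacylglycerol kinase genes passed, where 0.767% of all tested genes did. GNAQ, which couples receptors to phospholipase C, had 78.2, 102.9 and 134.7 CPM in neg.si and 57.6, 65.6 and 77.8 CPM in RIPK4.si. Its groups did not overlap, though by a small margin, and the log2 fold change was -0.65 with a standard error of 0.214 and an adjusted p of 0.267 in edgeR, and leaving out neg.si replicate 3 gave -0.43. GNA15 had a log2 fold change of -0.33 (adjusted p = 0.786), and leaving out neg.si replicate 2 gave -0.15 and replicate 3 -0.56. Among the phospholipases, PLCD1 had 6.17 ± 1.38 CPM in neg.si and 9.04 ± 0.534 CPM in RIPK4.si (adjusted p = 0.354), and PLCB4 had 18.8 ± 7.31 and 12.4 ± 2.67 CPM (adjusted p = 0.486). The log2 fold change of PLCB4 was -0.61, and -0.24 without neg.si replicate 3. DGKA and DGKD, which turn diacylglycerol into phosphatidic acid, had log2 fold changes of -0.33 and -0.38, with adjusted p-values of 0.466 and 0.483 from edgeR. Leaving out neg.si replicate 1 gave DGKD -0.25, and replicate 3 -0.51.

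Of the 5 tested PKC substrates, 0 passed with edgeR (0.767% of all tested genes) and 1, MARCKSL1, with DESeq2 (2.78%). An unadjusted p-value under 0.05 from edgeR was reached by 3 of them, 1 higher and 2 lower in RIPK4.si, and by 10.8% of all tested genes. MARCKSL1, a relative of the actin-binding substrate MARCKS, had 493.1, 512.9 and 401.2 CPM in neg.si and 191.6, 321.3 and 248.7 CPM in RIPK4.si. The groups did not overlap, as in 17.6% of all tested genes. The log2 fold change was -0.89 with a standard error of 0.208 and an adjusted p of 0.109 in edgeR. The adjusted p-value was 0.0114 with DESeq2, 0.0332 with the GC trend removed and 0.0396 without neg.si replicate 3, and it lay between 0.0396 and 0.509 with each library left out in turn. ADD3, an adducin of the membrane skeleton, had 177.0 ± 22.2 CPM in neg.si and 135.6 ± 3.83 CPM in RIPK4.si (adjusted p = 0.358 from edgeR). MARCKS itself, named after its values were seen, lay on the other side, with means of 111.1 CPM in neg.si and 164.1 CPM in RIPK4.si (log2 fold change 0.56 with a standard error of 0.235, unadjusted p = 0.0393 and adjusted p = 0.42 from edgeR), and its groups overlapped.

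The remaining lists held 0 calls with edgeR, against 0.767% of all tested genes: 0 of 11 genes for PKC priming and dephosphorylation, 0 of 7 anchors, 0 of 8 tested partners of atypical PKC, 0 of 8 PKD substrates, 0 of 5 tested genes of the CARD-BCL10-MALT1 complex and 0 of 3 PKN kinases. In these lists only WWC1 had an unadjusted p-value under 0.05, as 10.8% of all tested genes did. The WWC1 transcript, for the polarity protein KIBRA, was at 0.337 ± 0.156 CPM in neg.si and 0.864 ± 0.473 CPM in RIPK4.si (adjusted p = 0.384), and the groups overlapped. AKAP13, an anchor of PKD, had 55.6 ± 6.57 and 42.6 ± 7.36 CPM (adjusted p = 0.486), and PHLPP2, a phosphatase of PKC, 21.8 ± 4.05 and 16.7 ± 2.44 CPM (adjusted p = 0.534). PKN2, a PKC-related kinase, had 35.8 ± 11.9 and 48.3 ± 5.39 CPM (adjusted p = 0.574). The adjusted p-values of PICK1, CDC42, PI4KB, HDAC7, CARD9, MALT1 and PKN3 lay between 0.506 and 0.931.

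**Figure D5:**
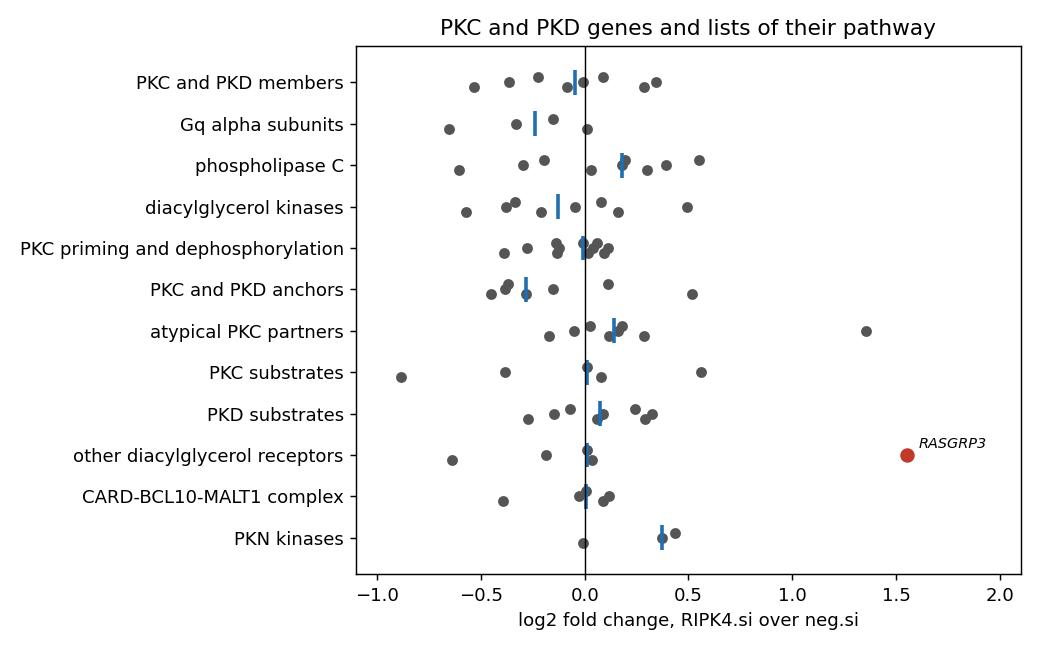
Fitted log2 fold change (RIPK4.si over neg.si) of the tested members and of the tested genes of 11 pathway lists. Each point is a gene, red where its adjusted p-value from edgeR is under 0.05, and each blue line is the median of a list. RASGRP3, at 1.56, is the 1 red point.

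For 2 members the tested genes with the most similar pattern over the 6 libraries were listed by Pearson's r of log2 CPM. For PRKCD these were CARD16 (r = 0.998), RPL10A (r = 0.996) and UROD (r = 0.996), and for PRKCA they were NQO2 (r = 0.996), SMIM10 (r = 0.993) and PPRC1 (r = 0.991). They are the highest of 16296 genes over 6 libraries that also differ in their GC trend, so values this high describe the selection.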

How the data were processed

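RNA was measured in 3 neg.si and 3 RIPK4.si libraries, labelled as separate replicates and described by the study as biological replicates. Per the study's methods, paired reads were trimmed (Cutadapt), placed on GRCh38.p13 (TopHat) and assigned to genes as read pairs by HTSeq, ignoring strand. The deposited counts are whole numbers of read pairs, not normalized. The deposited signal values, which are counts divided by a DESeq2 size factor, were not used. Nor were the authors' fold changes (a ratio), their log2 fold changes with standard errors, or their p-values, which come from the authors' DESeq2 fit.

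The counts were tested with edgeR 4.0.16 (R 4.3.3; filterByExpr, TMM, quasi-likelihood test, Benjamini-Hochberg adjustment over 16297 genes). Intervals are 95% intervals of single genes, not adjusted. Exon lengths (union of exons), GC content (longest transcript) and 3' UTRs came from GENCODE release 44, which held 24416 of the 24526 identifiers. Similarity of pattern used log2 CPM with a prior count of 2. Alternatives were DESeq2 1.42.0, edgeR with DESeq2's size factors or with upper-quartile scaling, testing without the filter, at least 10 counts in every library, removal of each library's GC trend (lowess, span 0.3), a replicate block, both together, and each library left out. Exact permutation tests of 3 against 3 libraries cannot give a p-value under 0.1. The pipeline was tested on simulated data.

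Named genes were RIPK4, the members, the 2 genes of each list with the smallest p-values (1 of these is not reported here), and the 3 genes most like PRKCD and the member with the smallest p-value. PRKD2, MARCKS and the melanocyte markers were added after their values were seen. Members and lists were chosen with earlier results of these data known. In bulk RNA, fewer cells and less RNA per cell cannot be told apart.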

Additional observations from a re-analysis of the deposited data

How the results depend on the processing

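Over 14 alternatives, 0 of 112 values for the 8 tested members had an adjusted p-value under 0.05, and the smallest was 0.174, for PRKCA with the GC trend removed and the replicate block. For PRKCE the sign turned, to 0.00383 with DESeq2, 0.00376 with its size factors in edgeR, 0.00318 with no filter on low counts, 0.0258 with the GC trend removed and 0.0308 with the replicate block added to that. With 1 library left out it lay between -0.058 and 0.12. In the same way PRKCD lay between -0.058 and 0.23. The causes were not tested. The members had 0 calls with each library left out, from 0 to 0, which says nothing about stability where edgeR called 0 of all genes (without neg.si replicate 2, RIPK4.si replicate 1 or RIPK4.si replicate 3).

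For the pathway lists, 1 call became 2 with DESeq2, 2 with the GC trend removed, 3 with the block added to it, and 0 to 2 with 1 library left out. Where edgeR made 0 calls there, 3 to 12 of the 73 genes had an unadjusted p-value under 0.05, beside 1086 to 2268 of all genes. GNAQ had an adjusted p-value of 0.0372 from edgeR with the GC trend removed and the block. Over all genes, 125 calls became 430 with DESeq2, 533 with the GC trend removed, 434 with the block added, and 0 to 295 with 1 library left out. The log2 fold change of RIPK4 lay between -2.06 and -1.74.

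With the replicate number as a block, 0 members, 1 pathway gene and 131 genes were called, and RIPK4 had -1.88. Same-numbered libraries deviated together with r of -0.24, 0.25 and 0.35, and not every library correlated best with its own number, so the numbers were not taken as pairs.

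Levels in neg.si divided by the longest transcript instead of all exons were 60.2 CPM per kilobase for PRKCD, 34.5 for PRKD3, 16.8 for PRKD1, 6.42 for PRKCI, 6.05 for PRKCE, 4.33 for PRKCA, 2.02 for PRKCZ and 1.32 for PRKCH, in the same order, and on that scale the neg.si libraries of PRKCE (lowest 5.50) and PRKCA (highest 4.81), and of PRKCZ (lowest 1.52) and PRKCH (highest 1.33), did not overlap. PRKCH had 0.548 with DESeq2's size factors. The levels with 1 neg.si library left out lay between 32.3 and 39.1 for PRKCD, 18.1 and 23.2 for PRKD3, 10.6 and 11.9 for PRKD1, 4.13 and 6.54 for PRKCI, 3.23 and 3.65 for PRKCE, 3.28 and 3.65 for PRKCA, 0.575 and 0.703 for PRKCZ, and 0.55 and 0.551 for PRKCH. Depth limits PRKCB.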
